A study of Macaca mulatta with 12 samples.

Results

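The abundant small structural RNAs of the liver were followed in rhesus macaques (Macaca mulatta): the spliceosomal U RNAs, the Y and vault RNAs, the RNA of the signal recognition particle (SRP), the 5S and 5.8S ribosomal RNAs and the RNA of RNase MRP. The members were taken by symbol from the transcript table, each Ensembl gene identifier being kept as a locus of its own, and had to reach 1 CPM (a count scaled to the library total, without further normalization) in at least 3 of the 12 libraries. Of 23993 gene identifiers, 644 had a matching symbol and 74 of these passed that level. They comprised 28 Y RNA loci, 13 SRP RNA loci, 7 U2, 4 U1, 4 U5, 3 U3, 3 vault RNA, 3 5S rRNA, 2 U4, 2 U12 and 2 5.8S rRNA loci, and 1 locus each of U6, U8 and RNase MRP RNA. No identifier was named 7SK or U11, and none of the 7 U7 loci nor the U6atac locus reached the level, so those RNAs were not followed here. U3 and U8 carry a U name but are small nucleolar RNAs that act in ribosomal RNA processing and not in splicing.

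The livers came from 6 male macaques aged about 4.6 years, each sampled by biopsy at 2 times: prior to ethanol, and when an induction lasting 90 days had ended. The induction raised the daily ethanol dose in steps of 30 days, to 0.5, 1 and 1.5 g/kg. In the 12 months of free access that followed, 3 animals drank 4 g/kg daily and were classed as very heavy drinkers (VHD). The other 3 drank 1.5 g/kg daily and were classed as light drinkers (LD). The 4 groups were VHD post-induction, VHD baseline, LD post-induction and LD baseline, with 3 libraries each. The classes name later drinking, so baseline livers of both classes had not yet met the ethanol, and every post-induction liver had received the same doses.

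The spliceosomal RNAs are the catalytic and recognition core of the machine that removes introns: U1 and U2 mark the splice sites, U4, U5 and U6 join as a preassembled unit, and U12 replaces U2 in the minor spliceosome. Y RNAs are short RNA polymerase III products bound by the Ro60 protein, and vault RNAs belong to the large vault particle. SRP RNA is the scaffold of the particle that brings ribosomes making secreted proteins to the endoplasmic reticulum, a heavily used route in hepatocytes. Many of these RNAs have near-identical copies in primate genomes, and the matching identifiers ran from 388 for SRP RNA and 95 for Y RNA to 3 for vault RNA, 2 each for U12 and 5.8S rRNA and 1 for RNase MRP RNA. How the authors' counting divided reads among copies is uncertain for the loci of the multi-copy classes. The preparation was built for mRNA and miRNA, and how it samples RNAs of this size is not given in the sources used here. In whole biopsies, fewer cells of a type and less RNA per cell cannot be told apart.

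Library totals ran between 5970033 and 25060718 counts. Hepatocyte markers summed to between 133195 and 251200 CPM in every library, as the liver label requires (7 of 8 markers were found, none at 0). VHD baseline 3 and VHD post-induction 2 stood apart from the other libraries. For every 1000 transcript counts they held 9.39 and 11.9 miRNA counts, against 16.6 to 43.5 in the other 10. Most medians over the members are given with and without them below. Values of single loci, classes and animals are mostly given with them only, library by library. CPM values below are scaled by TMM factors.

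The 74 loci together took between 1.40 and 2.90% of the counts of a library, nearly all of it 5.8S rRNA. Without 5.8S rRNA the share was 0.0826 to 0.733%. By mean CPM, 14 loci lay under 1, 39 between 1 and 10, 15 between 10 and 100, 4 between 100 and 1000 and 2 above 1000. A count above 0 in all 12 libraries was found for 64 of the 74. All 74 were annotated with a single transcript, and their spans were 89 to 308 bases, apart from the SRP RNA locus ENSMMUG00000049140, which spanned 12054 bases. The spans of 41 loci overlapped no other annotated gene, 19 lay on the same strand as another gene, and 14 lay only across from one on the opposite strand. The level just met the rule at 1.00 CPM for the Y RNA locus ENSMMUG00000026598 and just missed it at 0.996 CPM for the U6 locus ENSMMUG00000037090, both as the third highest library on plain totals.

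Ethanol induction and later drinking class were compared over all 18373 genes that passed a low-count filter, which all 74 loci did, and 0 of the 74 passed an adjusted p of 0.05 (edgeR's quasi-likelihood test, Benjamini-Hochberg) in any of 6 comparisons. DESeq2 also called 0 in each. Over all genes it called 266 in the mean response, 50 in the LD response, 54 in the VHD response and 1 in each other comparison. The percentages of all genes below are edgeR's. DESeq2's share of all genes under an unadjusted p of 0.05 is not given here, so its member counts in brackets lack that background. In the mean of the VHD and LD responses 0.267% of all genes were called, and 6 members had an unadjusted p under 0.05, against 7.91% of all genes (13 members in DESeq2). The median log2 response of the members was 0.29, against 0.07 for all genes, and 55 of 74 were positive, against 57.4% of all genes. In 6 of 6 animals 1 member was higher and 0 lower post-induction, against 2.67 and 3.74% of all genes.

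In VHD livers the response of the members had a median of 0.12, against 0.03 for all genes, and 41 of 74 loci were positive, against 52.4% of all genes. Of all genes 0% were called, and 3 members had an unadjusted p under 0.05, against 3.44% of all genes (5 in DESeq2). Post-induction livers lay wholly above baseline livers for 2 members and below for 0, against 2.8 and 3.89% of all genes. In LD livers the median was 0.52, against 0.08, and 65 of 74 loci were positive, against 56.4% of all genes. Again 0% of genes were called, and 3 members had an unadjusted p under 0.05, against 5.7% of all genes (5 in DESeq2). Groups did not overlap for 5 members that were higher and 0 that were lower, against 5.5 and 6.17%. The difference of the responses (VHD minus LD) had a median of -0.25, against -0.05, with 0% of genes called and 2 members under an unadjusted p of 0.05, against 1.3% (2 in DESeq2). Responses of the 3 VHD animals lay wholly above those of the LD animals for 1 member and below for 0, against 1.94 and 2.69%.

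Between the classes at baseline the members had a median of -0.16, against 0.07 for all genes, with 0.00544% of all genes called. An unadjusted p under 0.05 was found for 3 members, against 1.86% of all genes (4 members in DESeq2). All VHD livers were above all LD livers for 2 members and below for 7, against 4.13 and 3.08% of all genes. Post-induction the median was -0.63, against -0.01, and 0% of genes were called. Of the 74 loci 58 were negative and 16 positive, while 49.6% of all genes were positive. Here 5 members had an unadjusted p under 0.05, against 2.44% (6 in DESeq2), with 1 member wholly higher and 4 wholly lower in VHD livers, against 2.67 and 2.16%. These medians depend on single libraries. Without VHD post-induction 3 the mean response had a median of -0.00, the VHD response of -0.37, the difference of responses of -0.88 and the post-induction class difference of -1.25, with 26 members under an unadjusted p of 0.05 in the last. Without VHD baseline 3 the baseline class difference had a median of 0.02, without VHD baseline 2 of -0.51 and without VHD baseline 1 of -0.34. The median of the VHD response was 0.21 with VHD post-induction 1 left out and 0.28 with VHD post-induction 2 left out. Leaving out VHD baseline 1 gave 0.38, VHD baseline 3 gave 0.19, and LD baseline 1 gave 0.07. The mean response had a median of 0.47 without VHD baseline 1, the LD response of 0.34 without LD post-induction 3, and the difference of responses of -0.43 without LD post-induction 1. The numbers of members under an unadjusted p of 0.05, the 26 above included, also moved with single libraries. The share of all genes under that p in these fits is not given here. Whether the members moved more than other genes therefore cannot be told from these numbers. In the mean response, with 6 such members, leaving out VHD post-induction 2 gave 15, LD post-induction 1 gave 14 and VHD baseline 3 gave 3. In the VHD response, with 3, it was 11 when VHD post-induction 2 was dropped, 1 when VHD post-induction 3 was, and 5 when either VHD baseline 1 or LD post-induction 1 was. In the LD response, with 3, dropping LD post-induction 1 gave 6, VHD baseline 2 gave 5 and LD post-induction 2 gave 1. In the difference of responses, with 2, it was 0 if VHD post-induction 1, VHD baseline 2 or LD baseline 3 was left out and 1 if LD post-induction 2, LD baseline 1 or LD baseline 2 was. In the baseline class difference, with 3, dropping VHD post-induction 3 gave 6 and LD baseline 2 gave 1. In the post-induction class difference, with 5, dropping LD post-induction 1 gave 9, and each of LD post-induction 3, VHD baseline 2 and VHD baseline 3 gave 8. There VHD post-induction 2 gave 3 and LD post-induction 2 gave 2. Without both libraries that stood apart, an alternative chosen after seeing the data, the medians of the mean, VHD and LD responses were 0.43, 0.32 and 0.53, and those of the class differences were 0.06 at baseline and -0.43 post-induction, with 0 of 72 tested members called. The comparisons share libraries, so their values are not independent.

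**Figure D1:**
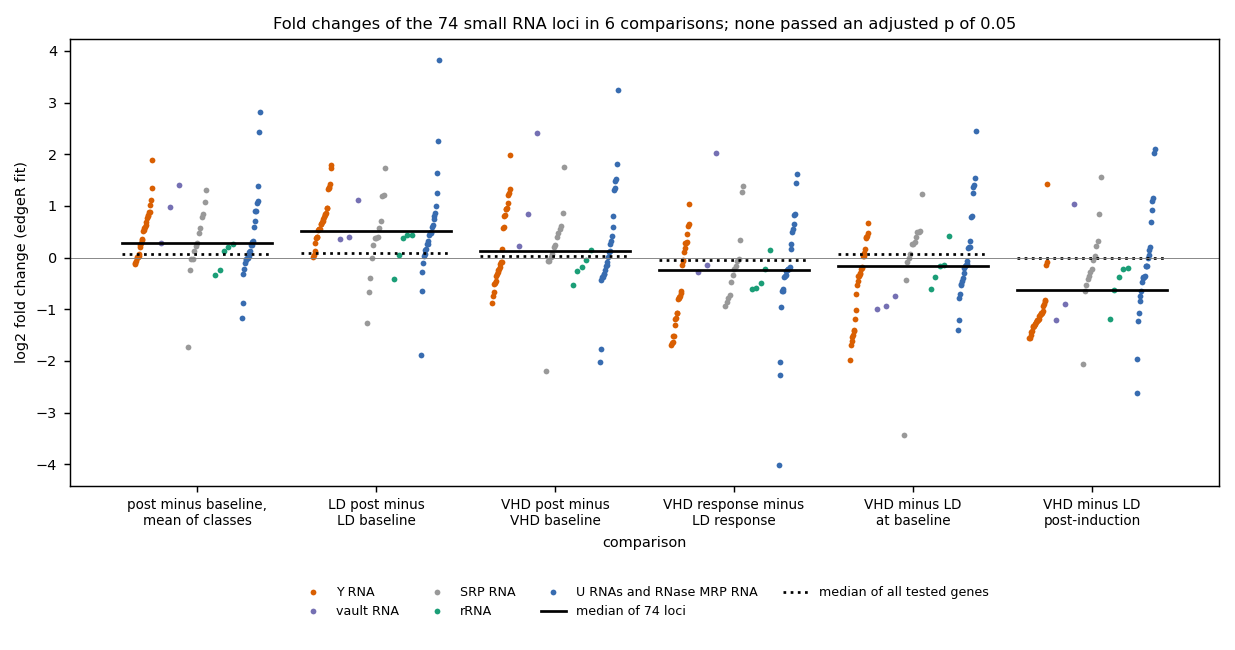
Log2 fold changes (edgeR) of the 74 loci in 6 comparisons, coloured by class, with the median of the 74 (solid line) and of all 18373 tested genes (dotted line). Loci scatter on both sides of 0 in each comparison. For VHD minus LD post-induction 27 of 28 Y RNA loci lie below 0, while 49.6% of all genes lie above it.

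**Figure D2:**
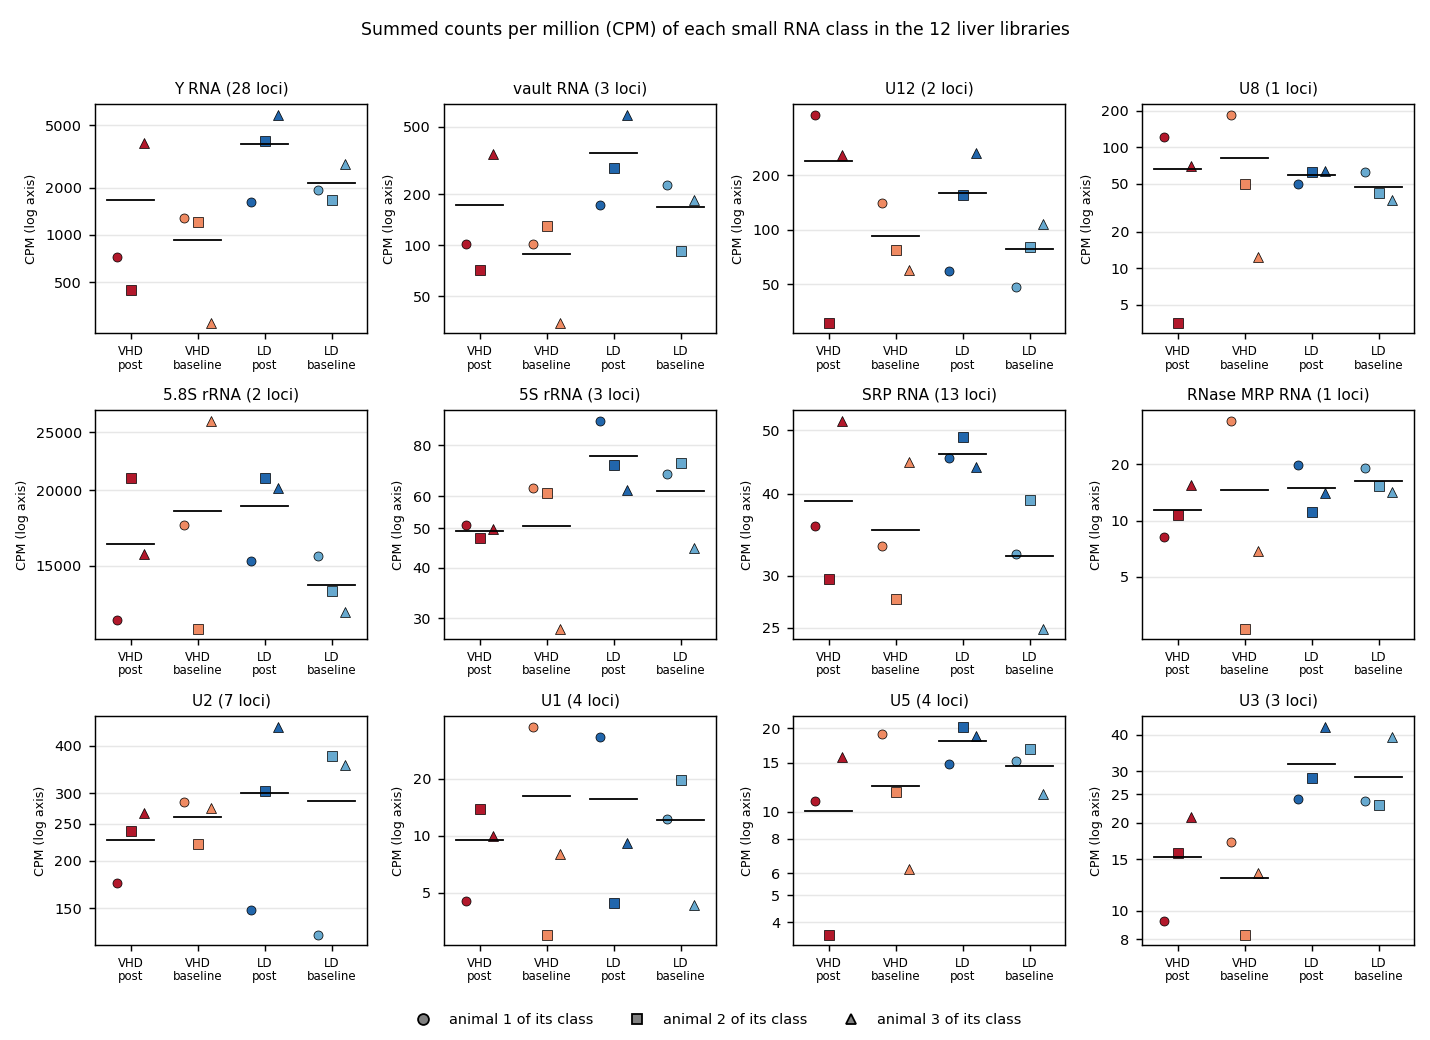
Summed CPM (log axes) of the loci of 12 classes in each library, by group; circles, squares and triangles are animals 1, 2 and 3 of a class and the bar is the group mean. U8 spans 3.56 to 123 CPM within VHD post-induction livers and 12.3 to 186 CPM within VHD baseline livers, and Y RNA is lowest at 275 CPM in VHD baseline 3, while 5.8S rRNA is highest there at 26096 CPM.

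Among the ribosomal RNAs, 5.8S rRNA, which pairs with 28S rRNA in the large subunit, was the most abundant member by far. Its total was 12206, 20956 and 15705 CPM in VHD post-induction livers, 17542, 11804 and 26096 CPM in VHD baseline livers, 15266, 21013 and 20181 CPM in LD post-induction livers and 15598, 13631 and 12559 CPM in LD baseline livers. The groups overlapped in each comparison on this scale, while with scaling from genes other than small RNA genes LD post-induction livers lay above LD baseline livers. A single locus on chromosome 16, ENSMMUG00000025378 (28266398 to 28266551, minus strand, Mmul_8.0.1), held at least 99.99% of it. The other locus, ENSMMUG00000026258, lies within the CTNNAL1 gene on the same strand and stayed between 0.677 and 1.83 CPM.

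The 5S rRNA, the RNA polymerase III transcript of the large subunit, had 50.9, 47.3 and 49.6 CPM in VHD post-induction livers against 91.9, 71.6 and 62.0 CPM in LD post-induction livers. These groups did not overlap, with VHD lower, also on plain totals and with scaling from genes other than small RNA genes, which reuse the same libraries. Of all single genes, 2.16% were wholly lower in VHD livers in this comparison. No such share was worked out for class totals, so how unusual a total without overlap is was not tested. The same holds for the U3, U4, Y RNA and SRP RNA totals below. At baseline the totals were 62.6, 60.9 and 28.3 CPM in VHD livers against 67.8, 72.4 and 44.7 CPM in LD livers, which overlapped. The most abundant 5S locus was ENSMMUG00000028437, with 40.8 to 67.9% of the class. The locus that differed most was ENSMMUG00000027964, with 8.0, 7.23 and 12.5 CPM in VHD post-induction livers against 20.8, 23.5 and 18.9 CPM in LD post-induction livers. Its log2 fold change was -1.19 ± 0.48 (SE), which did not pass adjustment in edgeR (adjusted p = 0.999).

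Of the RNAs that process ribosomal RNA, U3, which guides early cleavage of the precursor, had lower values in VHD than in LD livers at both times. Its main locus, ENSMMUG00000037615 on chromosome 16 (18712664 to 18712881, minus strand), had 13.9, 7.32 and 9.41 CPM in VHD baseline livers against 21.3, 22.0 and 37.0 CPM in LD baseline livers. After the induction it had 7.45, 12.1 and 18.5 CPM in VHD livers against 21.1, 27.7 and 40.9 CPM in LD livers. The classes did not overlap at either time, though on plain totals the post-induction U3 total of the classes did. The locus lies inside an unnamed gene on the same strand, ENSMMUG00000047032, whose classes did not overlap either. That gene had 11.1, 15.02 and 7.48 CPM in VHD baseline livers against 17.0, 20.4 and 29.5 CPM in LD baseline livers, and 11.6, 12.1 and 16.8 CPM in VHD post-induction livers against 21.6, 25.1 and 49.1 CPM in LD post-induction livers. Its part in the U3 values was not tested. The log2 differences were -1.40 ± 0.41 at baseline and -1.23 ± 0.41 post-induction (SE), with unadjusted p of 0.00469 and 0.00990. Neither passed adjustment in edgeR (adjusted p = 1.00 and 0.999). The other U3 loci, at 0.506 to 2.70 and 0.123 to 3.37 CPM, did not share the pattern.

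U8, needed for 5.8S and 28S maturation, was a single locus (ENSMMUG00000024671, chromosome 16, 8198346 to 8198481, minus strand) inside an unnamed gene on the same strand. It had 123, 3.56 and 70.7 CPM in VHD post-induction livers and 186, 49.3 and 12.3 CPM in VHD baseline livers. LD livers were narrower, at 50.0, 62.3 and 64.2 CPM post-induction and 62.5, 42.1 and 37.0 CPM at baseline. The lowest value was in VHD post-induction 2 and the next lowest in VHD baseline 3, the 2 libraries that stood apart. The enclosing gene, ENSMMUG00000039536, stayed between 24.0 and 31.0 CPM in all 12 libraries. RNase MRP RNA (ENSMMUG00000038988), the RNA of an endonuclease that cuts the rRNA precursor, had 8.14, 10.8 and 15.5 CPM in VHD post-induction livers and 34.3, 2.65 and 6.85 CPM in VHD baseline livers. It had 19.8, 11.2 and 14.1 CPM in LD post-induction livers and 19.2, 15.3 and 14.2 CPM in LD baseline livers. VHD baseline held both its highest and its lowest library.

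Of the spliceosomal RNAs, U2 was the most abundant in this preparation. Its total was 174, 239 and 266 CPM in VHD post-induction livers, 286, 222 and 274 CPM in VHD baseline livers, 149, 304 and 449 CPM in LD post-induction livers and 128, 377 and 356 CPM in LD baseline livers. The groups overlapped throughout, and the 2 libraries of animal LD1 were the lowest of the LD livers. The locus ENSMMUG00000035403 on chromosome 14 (11456811 to 11457002, plus strand) held 91.2 to 98.1% of the U2 total, and the other 6 loci were minor copies. Among these, ENSMMUG00000034941 was higher post-induction in 6 of 6 animals, at 2.90, 1.86 and 9.70 CPM in VHD post-induction livers against 1.35, 1.54 and 2.30 CPM in VHD baseline livers, and 2.76, 6.21 and 10.2 CPM in LD post-induction livers against 1.73, 2.21 and 8.05 CPM in LD baseline livers. Its VHD response was 1.48 ± 0.71 on the log2 scale (edgeR adjusted p = 1.00). The minor copy ENSMMUG00000034229, opposite the SMARCA2 gene, had 1.24, 1.15 and 0.587 CPM in VHD post-induction livers against 0.621, 9.17 and 0.0741 CPM in VHD baseline livers. In LD livers it had 0.477, 13.4 and 4.12 CPM post-induction against 1.21, 0.949 and 1.58 CPM at baseline.

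U1, which recognises the 5′ splice site, totalled 3.02 to 37.5 CPM over the 12 libraries. Of its 4 loci, the one with the highest mean behaved as an on and off signal in this table. This locus, ENSMMUG00000025175 on chromosome 2 (122838880 to 122839044, plus strand), had 0, 6.79 and 0 CPM in VHD post-induction livers and 29.3, 0 and 0 CPM in VHD baseline livers. It had 27.3, 0 and 0 CPM in LD post-induction livers and 8.31, 14.7 and 0.0719 CPM in LD baseline livers. A count of 0 allows up to 0.111 to 0.414 CPM in those libraries (3 counts, counting error only), so the libraries with signal stood well above the limit. On and off livers occurred in all 4 groups. The locus lies within SLC2A2, the hepatic glucose transporter gene, on the same strand, and SLC2A2 itself had 554 to 1493 CPM in all 12 libraries. The next U1 locus, ENSMMUG00000025173, had 2.15 to 6.52 CPM in every library. ENSMMUG00000024942, at 0 to 1.52 CPM, had a baseline difference of VHD from LD of 2.45 ± 1.10 (log2, SE), which did not pass adjustment in edgeR.

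U5, which holds the exons in place during splicing, totalled 10.9, 3.61 and 15.8 CPM in VHD post-induction livers, 19.1, 11.8 and 6.22 CPM in VHD baseline livers, 14.8, 20.2 and 18.7 CPM in LD post-induction livers and 15.2, 16.9 and 11.6 CPM in LD baseline livers. Its lowest libraries were again VHD post-induction 2 and VHD baseline 3. The most abundant of the 4 U5 loci, ENSMMUG00000048730, lies 7487 bases from a second U5 locus on chromosome 7. The locus ENSMMUG00000045455 had 2.48, 1.04 and 3.56 CPM in VHD post-induction livers against 4.66, 5.24 and 5.08 CPM in LD post-induction livers, with no overlap (log2 -1.08 ± 0.46, edgeR adjusted p = 0.999).

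U4 and U6, the base-paired partners that enter the spliceosome together, were at the edge of detection. U4 totalled 1.24, 1.81 and 2.80 CPM in VHD post-induction livers against 0.932, 0 and 1.15 CPM in VHD baseline livers, and 0.477, 0.194 and 4.03 CPM in LD post-induction livers against 0.346, 0.380 and 1.15 CPM in LD baseline livers. VHD post-induction livers were above VHD baseline livers, while the LD groups overlapped. Neither U4 locus, ENSMMUG00000024391 nor ENSMMUG00000027617, passed adjustment. The single U6 locus, ENSMMUG00000035061, had 1.10, 1.31 and 0.496 CPM in VHD post-induction livers and 0.828, 1.66 and 1.37 CPM in VHD baseline livers. It had 0.0530, 0.453 and 0.863 CPM in LD post-induction livers against 0.519, 1.33 and 2.80 CPM in LD baseline livers. It was lower post-induction in all 3 LD animals, with a log2 response of -1.89 ± 0.80 (edgeR adjusted p = 0.856), but the lowest value was below the level of 3 counts.

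U12, the branch-site RNA of the minor spliceosome, gave the smallest p of all members in the mean response to the induction. The locus ENSMMUG00000025425 on the X chromosome (47286182 to 47286331, plus strand) had 17.3, 0.383 and 25.1 CPM in VHD post-induction livers against 3.52, 7.45 and 1.26 CPM in VHD baseline livers. It had 0.954, 23.2 and 35.7 CPM in LD post-induction livers against 1.73, 0.949 and 1.58 CPM in LD baseline livers. Post-induction livers thus split into 4 high and 2 low ones, VHD 2 and LD 1 being low. The mean response was 2.82 ± 0.86 on the log2 scale (SE, higher post-induction in 4 of 6 animals), with an unadjusted p of 0.00594 and an edgeR adjusted p of 0.307. The second U12 locus, ENSMMUG00000025523 on chromosome 10 (84757529 to 84757679, plus strand), held 85.2 to 98.8% of the class. It had 415, 30.2 and 233 CPM in VHD post-induction livers against 138, 69.6 and 58.8 CPM in VHD baseline livers, and 58.2, 133 and 230 CPM in LD post-induction livers against 46.6, 79.0 and 106 CPM in LD baseline livers. It was higher post-induction in the same animals as the first locus and also in LD 1, and its mean response was 1.10 ± 0.51 (SE, edgeR adjusted p = 0.633). Both U12 loci overlapped no other annotated gene.

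**Figure D3:**
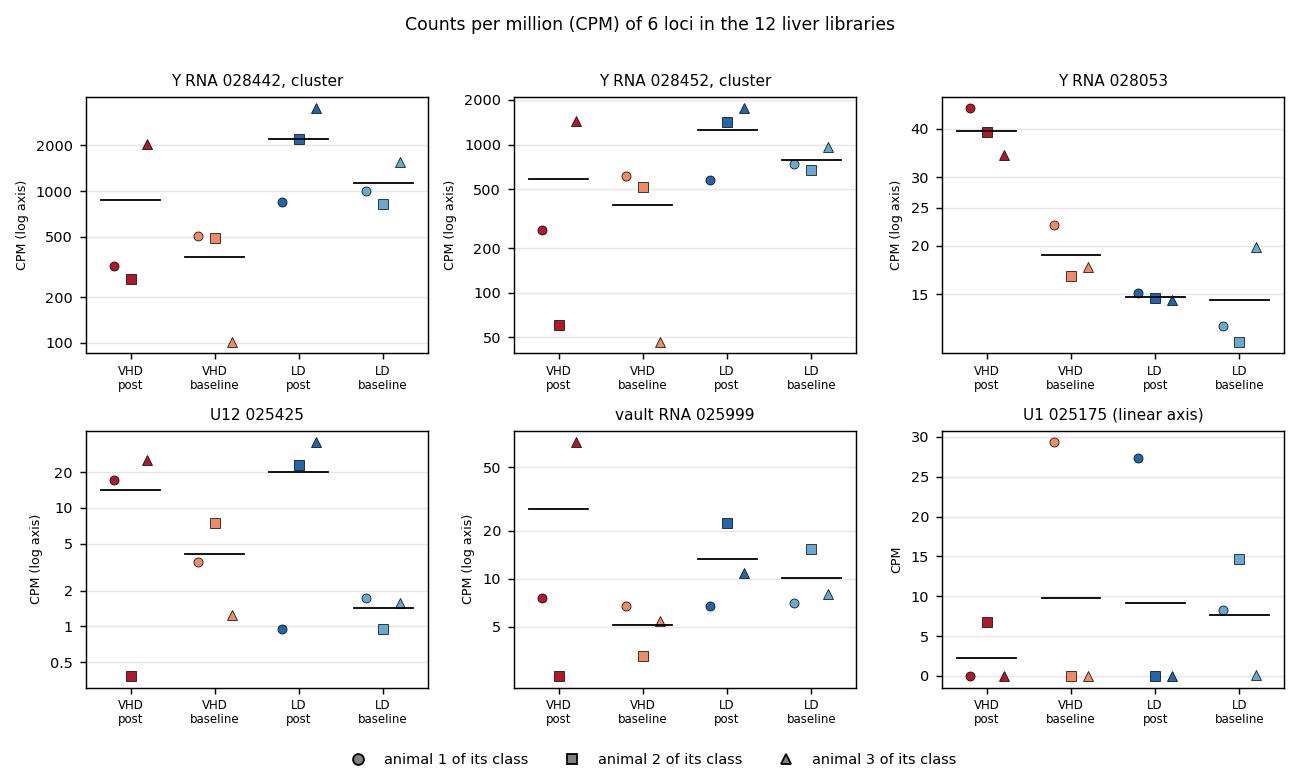
CPM of 6 loci in the 12 libraries by group, titled by class and the last digits of their Ensembl identifiers; symbols are animals 1, 2 and 3 of a class, bars are group means, and the U1 panel has a linear axis while the others are logarithmic. The Y RNA locus ENSMMUG00000028053 sits at 34.2 to 45.1 CPM in VHD post-induction livers and at 22.7 CPM or less elsewhere, whereas the clustered locus ENSMMUG00000028442 spreads over 101 to 3518 CPM.

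The Y RNA total ranged 21.2-fold between libraries. It was 722, 446 and 3852 CPM in VHD post-induction livers, 1289, 1202 and 275 CPM in VHD baseline livers, 1611, 3999 and 5834 CPM in LD post-induction livers and 1937, 1661 and 2849 CPM in LD baseline livers. At baseline all VHD livers were below all LD livers on this scale, on plain totals and with scaling from genes other than small RNA genes. Leaving aside VHD baseline 3, the lowest library, could not make these groups overlap. Post-induction the classes overlapped through VHD 3 alone. Within animals, the total after the induction was 0.560, 0.371 and 14.0 times the baseline total in VHD 1, 2 and 3, and 0.832, 2.41 and 2.05 times in LD 1, 2 and 3.

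Most of the Y RNA signal came from a cluster on chromosome 3. ENSMMUG00000027349 (170090690 to 170090803, plus strand), ENSMMUG00000028442 (170094114 to 170094216, minus strand) and ENSMMUG00000028452 (170116562 to 170116658, minus strand) together held 55.0 to 94.6% of the total. The share was lowest in VHD baseline 3 (55.0%) and VHD post-induction 2 (74.3%), and at least 85.0% in the other 10. ENSMMUG00000028442 had 321, 265 and 2042 CPM in VHD post-induction livers and 506, 493 and 101 CPM in VHD baseline livers. It had 852, 2214 and 3518 CPM in LD post-induction livers and 1008, 819 and 1545 CPM in LD baseline livers. The ratio of ENSMMUG00000028442 to ENSMMUG00000028452 lay between 0.827 and 2.00 in 10 libraries. It was 4.38 in VHD post-induction 2, where it was highest, and 2.17 in VHD baseline 3. The baseline difference between classes for ENSMMUG00000028442 was -1.62 ± 0.80 on the log2 scale (SE, edgeR adjusted p = 1.00).

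A Y RNA locus outside the cluster went the other way. ENSMMUG00000028053 on chromosome 1 (201998038 to 201998141, plus strand) lies between ALDH9A1, 363 bases away, and MGST3, 1089 bases away. The part of these neighbours in its values was not tested. The locus had 45.1, 39.3 and 34.2 CPM in VHD post-induction livers against 22.7, 16.7 and 17.6 CPM in VHD baseline livers. It had 15.1, 14.7 and 14.5 CPM in LD post-induction livers against 12.5, 11.3 and 19.8 CPM in LD baseline livers. VHD post-induction livers were above all 9 others. It had the smallest unadjusted p of all members in 3 comparisons. The log2 difference of VHD from LD post-induction was 1.42 ± 0.30, the VHD response was 1.06 ± 0.29, and the difference of responses was 1.04 ± 0.42 (SE). Their unadjusted p in edgeR's quasi-likelihood test were 0.000335, 0.00315 and 0.0260. None passed adjustment over 18373 genes, with adjusted p of 0.999, 0.706 and 1.00. It was the only Y RNA of 28 with a positive log2 difference between VHD and LD post-induction, and the other 27 were negative. The locus ENSMMUG00000023945, within TMEM165 on the same strand, also departed from the cluster, with 90.8 CPM in VHD baseline 3 as its highest library. These loci were singled out after their values were seen, except where they had the smallest p of a comparison. Further Y RNA loci were among the 5 with the smallest unadjusted p of a comparison. ENSMMUG00000037313, at 0.0370 to 4.31 CPM, had a mean response of 1.89 ± 0.65 (SE, edgeR adjusted p = 0.413). The difference of responses was -1.695 ± 1.06 for ENSMMUG00000025001, and the baseline class difference was -1.99 ± 1.05 for ENSMMUG00000045045.

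The 3 vault RNA loci followed the Y RNA order in part. Their total was 101, 71.5 and 347 CPM in VHD post-induction livers, 101, 129 and 34.95 CPM in VHD baseline livers, 174, 284 and 587 CPM in LD post-induction livers and 226, 92.4 and 185 CPM in LD baseline livers. As for the Y RNAs, the lowest library was VHD baseline 3 and the highest LD post-induction 3. The locus ENSMMUG00000024017 on chromosome 6 (138478129 to 138478228, plus strand) held 77.4 to 96.5% of it, and a second locus lies 7419 bases away. The third, ENSMMUG00000025999 (chromosome 6, 133790184 to 133790285, minus strand), had 7.59, 2.46 and 71.6 CPM in VHD post-induction livers against 6.73, 3.26 and 5.44 CPM in VHD baseline livers. Its VHD response of 2.41 ± 0.92 on the log2 scale (edgeR adjusted p = 1.00) rested on VHD post-induction 3. Without that library it was -0.11.

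The 13 SRP RNA loci, of 388 identifiers with that symbol, summed to a narrow range. It was 24.9 to 51.7 CPM over the 12 libraries (2.07-fold, against 2.21-fold for 5.8S rRNA). Single loci varied more, such as ENSMMUG00000039908 by 25.9-fold. Whether the sum stands for the level of SRP RNA itself was not tested. The total was 35.7, 29.7 and 51.7 CPM in VHD post-induction livers against 33.3, 27.7 and 44.7 CPM in VHD baseline livers, and 45.4, 48.8 and 44.0 CPM in LD post-induction livers against 32.4, 39.2 and 24.9 CPM in LD baseline livers. It was higher post-induction in 6 of 6 animals, by 1.07 to 1.76 times, and the LD groups did not overlap. On plain library totals it was higher in 5 of 6. The most abundant locus was ENSMMUG00000042506, with 22.9 to 53.8% of the class. ENSMMUG00000047465, within the VWF gene on the same strand, was higher post-induction in 5 of 6 animals, with a mean response of 0.79 ± 0.28 (SE, edgeR adjusted p = 0.436). ENSMMUG00000048004 had an LD response of 1.73 ± 0.91 (edgeR adjusted p = 0.856), and ENSMMUG00000044757 had a difference of responses of 1.27 ± 0.81. The baseline class difference was -3.44 ± 1.31 for ENSMMUG00000046886, at 0 to 2.23 CPM. ENSMMUG00000044786 was wholly higher in VHD livers at baseline. Post-induction its classes overlapped, with a difference of 1.57 ± 0.70 (edgeR adjusted p = 0.999). ENSMMUG00000039908 had the largest negative mean response, -1.73 ± 0.66 (edgeR adjusted p = 0.497), though it was higher post-induction in 2 of 6 animals. It had 0.276, 0.712 and 0.406 CPM in VHD post-induction livers against 1.86, 0.308 and 4.48 CPM in VHD baseline livers. LD livers had 0.901, 0.194 and 1.05 CPM post-induction against 0.173, 1.90 and 2.80 CPM at baseline. Its highest library, VHD baseline 3, was among those that stood apart.

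**Figure D4:**
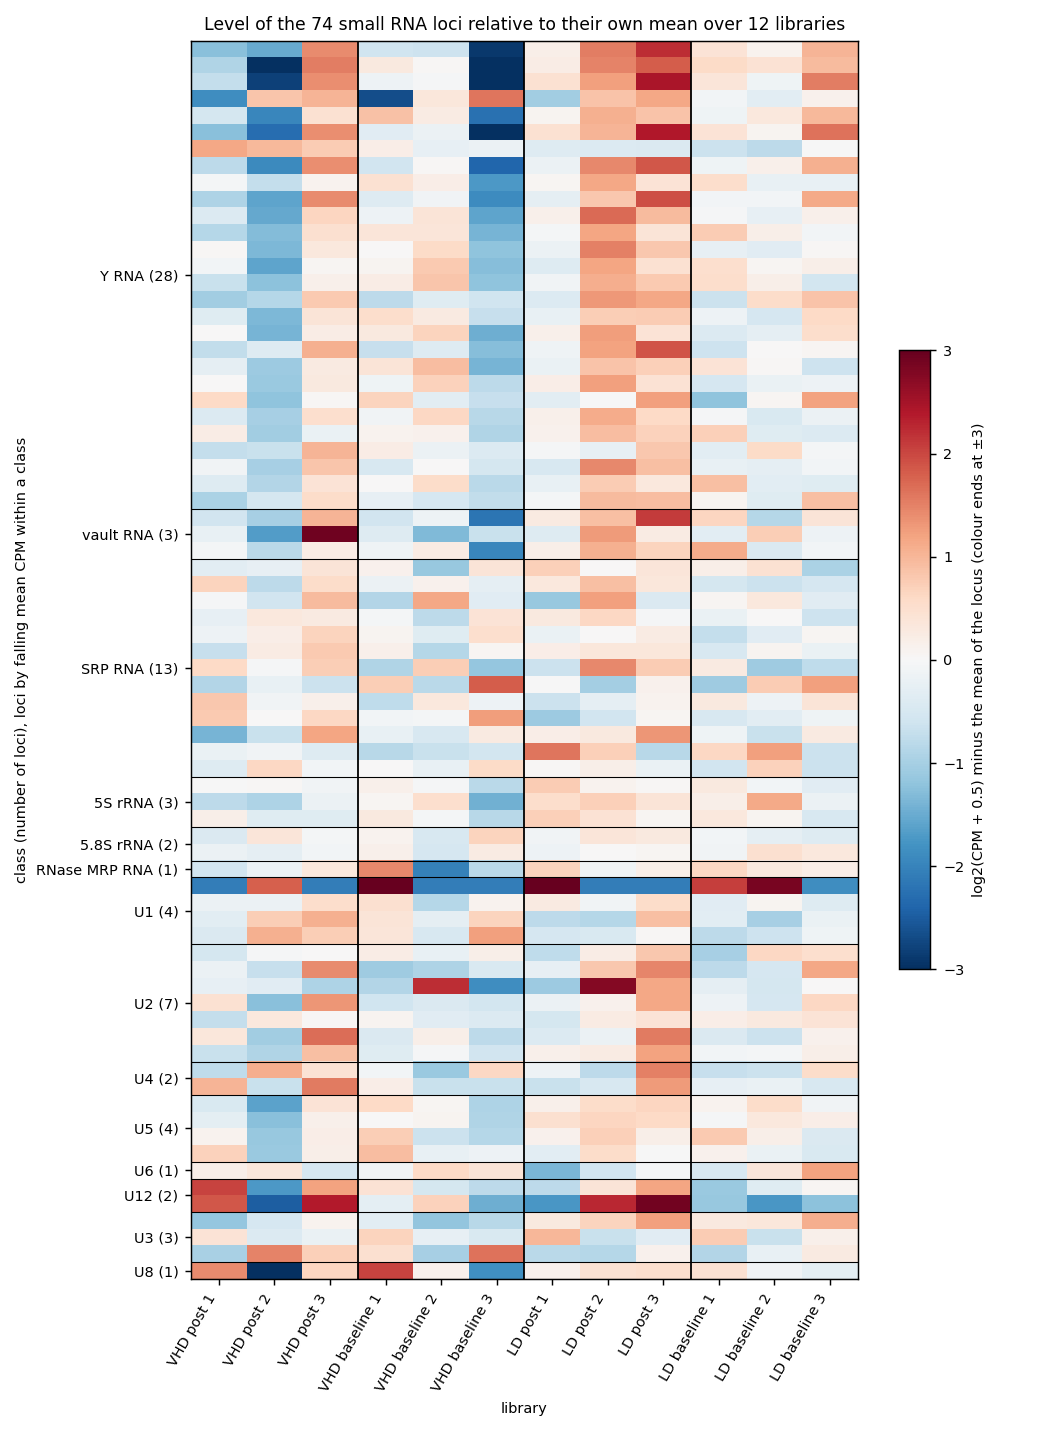
Level of each of the 74 loci (rows, by class) in each library (columns, by group), as log2(CPM + 0.5) minus the mean of the locus over the 12 libraries; red is above and blue below that mean. Y RNA rows are mostly blue in VHD post-induction 2 and VHD baseline 3 and mostly red in LD post-induction 2 and 3.

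The same few libraries set the extremes of many loci. Of the 70 loci with a single lowest library, 21 were lowest in VHD post-induction 2 and 20 in VHD baseline 3, while of all tested genes 14.1% and 10.9% were lowest there. Of the 74, 20 were highest in LD post-induction 2 and 20 in LD post-induction 3, while 12.1% and 9.67% of all tested genes were. Among the 28 Y RNAs, 13 were lowest in VHD baseline 3 and 14 highest in LD post-induction 2. The miRNA counts per 1000 transcript counts were 43.5 and 34.2 in LD post-induction 2 and 3 and 30.5 in VHD post-induction 3, against 9.39 in VHD baseline 3 and 11.9 in VHD post-induction 2. Other small RNA genes (small nucleolar, Cajal body and miRNA symbols) took 13.8 and 17.4% of the counts in LD post-induction 2 and 3. Their share was 16.6% in VHD post-induction 3, 5.98% in VHD post-induction 2, the lowest, and 8.495% in VHD baseline 3, near the median of 8.46%. High values there were thus not particular to the 74 loci. Summed leukocyte markers (9 of 10 found, none at 0 in all libraries) were 293 to 638 CPM in VHD post-induction livers, 420 to 1072 CPM in VHD baseline livers, 191 to 424 CPM in LD post-induction livers and 497 to 682 CPM in LD baseline livers. Their highest value was in VHD baseline 3 and their lowest in LD post-induction 2. The part of the miRNA content, of the other small RNA genes or of the leukocyte markers in these extremes was not tested. Endothelial markers (4 of 5 found) summed to 61.0 to 149 CPM, cholangiocyte markers (3 of 4) to 22.7 to 83.5 CPM, stellate cell and fibroblast markers (5 of 5) to 74.6 to 206 CPM and erythrocyte markers (5 of 7) to 4.45 to 16.2 CPM over the 12 libraries.

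Within most animals, the greater part of the members had either higher or lower post-induction levels, while LD 1 leaned little either way. Between the biopsies of VHD 1, 2 and 3, 22, 25 and 60 of the 74 loci had a higher post-induction level, with median log2 differences of -0.29, -0.80 and 1.18. In LD 1, 2 and 3 the counts were 39, 55 and 61, with medians of 0.04, 0.62 and 0.61. Of all tested genes, between 46.5 and 53.4% were higher post-induction in an animal. Of the 28 Y RNAs, 6, 3 and 27 were higher post-induction in VHD 1, 2 and 3, and 13, 26 and 25 in LD 1, 2 and 3. The baseline library of VHD 3 and the post-induction library of VHD 2 are those that stood apart, so the values of VHD 2 and VHD 3 cannot be had without them. In LD 1 the direction depends on the scaling, since 33 loci were higher on plain totals and 45 with scaling from genes other than small RNA genes.

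The proteins that work with these RNAs were read from 13 lists with 134 tested genes, covering the Sm ring, the snRNPs, their assembly, Y RNA, vault, SRP and 5S partners, RNase P and MRP, and RNA polymerase III. In the mean response 0 rose and 1 fell in edgeR, against 0.267% of all genes called in either direction. An unadjusted p under 0.05 was found for 13 of the 134, against 7.91% of all genes. The gene that fell was RPF2, an assembly factor of the 5S ribonucleoprotein. It had 2.48, 1.75 and 2.12 CPM in VHD post-induction livers against 6.73, 6.89 and 2.96 CPM in VHD baseline livers, and 1.64, 2.78 and 1.44 CPM in LD post-induction livers against 6.75, 8.86 and 7.69 CPM in LD baseline livers. All post-induction livers were below all baseline livers. The mean response was -1.68 ± 0.29 on the log2 scale (SE, edgeR adjusted p = 0.0336). With a term for the animal it was -1.66 with an adjusted p of 0.0989, and leaving out a library gave adjusted p of 0.0246 to 0.109, past the threshold only without VHD baseline 3, LD post-induction 1 or LD baseline 1. DESeq2 called RPF2 and DDX20, where it called 266 of all 18373 genes. DDX20, a helicase of the SMN complex that loads Sm rings onto snRNAs, had -0.97 ± 0.20 (edgeR adjusted p = 0.0693), and the median of the 15 tested assembly genes was -0.37, against 0.07 for all genes. The RNase P and MRP subunit RPP38 had -0.96 ± 0.27 (adjusted p = 0.246). NCL, which encodes nucleolin and headed the Y RNA list, had -0.59 ± 0.20 (adjusted p = 0.402). The splicing factor gene SF3B1 had -0.53 ± 0.23 (adjusted p = 0.571), and TBP, used by RNA polymerase III, had -0.53 ± 0.20 (adjusted p = 0.504).

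The genes with the smallest p of the other lists missed adjustment by more. LSM2 of the Sm-like ring had 0.37 ± 0.21 and TXNL4A of the tri-snRNP had -0.35 ± 0.28. SNRNP35 of the minor spliceosome had -0.76 ± 0.44 and POU2F1, an activator of snRNA genes, had 0.84 ± 0.39. SRPRB, a subunit of the SRP receptor, had -0.53 ± 0.31, and PARP4 of the vault had 0.18 ± 0.19. LARP7, which binds 7SK, had -0.40 ± 0.24. In the other 5 comparisons 0 of the 134 genes passed in edgeR, where at most 0.00544% of all genes were called. In DESeq2 RPF2 passed in the LD response, where 50 of all 18373 genes were called. There 0 of the 134 passed in the VHD response, where 54 of all genes were called, and 0 in the remaining comparisons. An unadjusted p under 0.05 was found for 5 of the 134 in the VHD response (3.44% of all genes), 5 in the LD response (5.7%), 0 in the difference of responses (1.3%), 1 in VHD against LD at baseline (1.86%) and 0 in VHD against LD post-induction (2.44%).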

How the data were processed

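RNA was measured in 12 liver libraries, and the authors' deposited transcript table holds expected counts per Ensembl transcript, of which 40.1% of values were whole. Per the labels' protocols, NEXTFLEX Combo-Seq libraries were made from 500 ng of total RNA with RIN above 8.5 and read for 76 bases. The submitters' processing notes name BWA, Bowtie and Partek, and Mmul_8.0.1 as the build. No source used here gives versions, the annotation release, the strand setting or the handling of multi-mapped reads. Start positions may be off by 1 base, because the table does not say if it counts from 0.

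The 40611 transcripts were summed into genes and rounded. The tests used edgeR 4.0.16 under R 4.3.3 (filterByExpr by group, TMM factors, quasi-likelihood F test over 4 group means and 12 libraries, robust dispersion, Benjamini-Hochberg over all tested genes, threshold 0.05), a script tested on simulated data. The SE of a log2 fold change is that fold change over the root of the F statistic. Each library's total was 5970033 to 25060718 counts, and 3 counts correspond to 0.111 to 0.519 CPM, counting error only. Values after ± are SE for fold changes.

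Samples were grouped by title. The titles give the same number to an animal at both times, and libraries of an animal were treated as independent in the main fit. The correlation of deviations from the group means within an animal was 0.406, -0.354 and 0.104 for VHD 1, 2 and 3 and 0.0748, -0.0162 and 0.351 for LD 1, 2 and 3, and a fit with an animal term was run as an alternative. DESeq2 1.42.0, RLE and upper-quartile factors, scaling from genes other than small RNA genes, other filters, fits to the compared groups alone, blocks and leaving out each library were the other alternatives. Named members were the 5 with the smallest unadjusted p in each comparison, since none passed, the most abundant of each class, and every member of classes with 1 or 2. Each partner list gave its called genes or the gene with the smallest p. The members and lists were chosen with earlier results of these data known. Sequences of the members were not used here. The miRNA table was used only for its library totals, and the deposited normalized tables were not used here.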

Additional observations from a re-analysis of the deposited data

How the results depend on the processing

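The count of members called was 0 in all 6 comparisons and under all 124 alternatives that were fitted to them, including every fit without a single library (0 to 0). A term for the animal, the pairing of the design, also gave 0 for the responses, their mean and their difference, as did a block on the number in the titles for VHD against LD, and these terms changed no call of a member. Over all genes the mean response had 4 calls with the animal term, where it had 49 without it. The smallest adjusted p of a member under any alternative was 0.0522, from DESeq2 for VHD against LD post-induction. The loci whose direction was followed were picked by their small unadjusted p in these data. The alternatives reuse the same libraries, so most directions were bound to hold and the count is no independent support. Of 615 alternative values of named loci, 613 kept their direction. The vault RNA locus ENSMMUG00000025999 did not: without VHD post-induction 3 its VHD response was -0.11 and its difference of responses -0.40, where it had 2.41 and 2.02 with all libraries. Over all fits that left out a library these ran between -0.11 and 2.95 and between -0.40 and 2.63. That locus had 71.6 CPM in the library left out. Of the partner genes, RPF2 lost its call with the animal term and in 9 of the 12 fits without a library. Mean class totals moved by less than their spread over the 12 libraries under each scaling. Depth limits the scarce loci, of which 14 had a mean under 1 CPM, and 3 libraries per group limit what a test over 18373 genes can call.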
